A study of Homo sapiens with 6 samples.

Results

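The RNF genes are a numbered series of human genes named for the RING finger, a zinc-binding fold. Members were taken from the deposited gene count table as protein-coding genes whose symbol is RNF followed by a number and at most 1 letter, with RNF2, a Polycomb subunit gene, left out; 84 of the 58735 genes of the table met this rule. Counts came from 6 RNA-seq libraries of mRNA caught on poly-T beads from 786-O cells, an established human clear cell renal carcinoma line. Per the sample labels, cells carried either a control short hairpin RNA (sh-Control, 3 libraries) or a hairpin against CBX7 (sh-CBX7, 3 libraries). The labels give no further genotype, agent or time, and the count columns of the sh-CBX7 libraries are named siCBX7 instead. Separate cultures are not named for the libraries, so the p-values reflect spread among libraries that may be technical and no more. CBX7 encodes a chromobox subunit of Polycomb complexes, and the series title joins it to RNF26 as an axis in TNF signalling and in how renal cancer cells grow and respond to kinase inhibitors.

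Most RING finger proteins are E3 ubiquitin ligases. The RING holds an E2 enzyme charged with ubiquitin beside a substrate, and the rest of the protein sets the substrate and the place in the cell. The numbers in the names follow discovery and not descent, so the series mixes membrane ligases of the endoplasmic reticulum (ER), nuclear ligases of the DNA damage response, RING-between-RING enzymes that carry ubiquitin on their own cysteine, and regulators of innate immune signalling. RNF26 is a membrane ligase of the ER that ubiquitylates the adaptor SQSTM1 to hold endosomes near the nucleus and that also acts on the innate immune adaptor STING.

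Libraries held 16384151 to 18868874 counts. CBX7 itself (ENSG00000100307; chromosome 22, 39120167 to 39152674, minus strand; all positions are on GRCh38) had 12.2, 13.2 and 11.2 CPM in the sh-Control libraries and 7.59, 6.70 and 8.01 CPM in the sh-CBX7 libraries (CPM being counts scaled by the TMM-adjusted library total; log2 fold change -0.71 with an SE of 0.13, adjusted p = 5.41e-05 by edgeR). It was lower in each sh-CBX7 library than in any control and was still detected. Markers of the labelled cell type were present: 9 of 9 renal carcinoma cell markers were tested, with summed levels of 3812 to 3957 CPM in sh-Control and 4128 to 4384 CPM in sh-CBX7. VIM (1826 CPM in sh-Control) and KRT8 (865 CPM) carry most of this sum and CA9 lay near 1 CPM. Of the 9, KRT8, KRT18 and CDH2 were called higher, PAX8 (-0.32) and PAX2 (-0.49) lower and 4 were not called. The 9 leukocyte markers summed to 1.59 to 2.46 CPM in sh-Control and 1.33 to 2.43 CPM in sh-CBX7, with PTPRC, CD3E and MS4A1 at 0 in all libraries. The 5 endothelial markers summed to 2.53 to 3.498 and 3.99 to 5.25 CPM, with CDH5 at 0, and the 5 fibroblast markers to 10.04 to 11.7 and 11.005 to 12.7 CPM. Their part in the results below was not tested.

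RNF26 was among the RNF genes that fell furthest, together with RNF123, RNF4 and RNF40, whereas more members rose than fell, most of them by little. Of the 84 members, 66 had enough counts to be tested. In the edgeR quasi-likelihood test 38 of them changed (57.6%, adjusted p below 0.05), where 53.3% of all 14573 tested genes did. Of the 66, 25 (37.9%) were higher in sh-CBX7 against 26.1% of all tested genes, and 13 (19.7%) were lower against 27.2%. The groups did not overlap for 44 members (66.7%), where they did not overlap for 59% of all tested genes. Both the share called and the share without overlap were thus near those of all genes, and no test compares the family with other genes.

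The falls went further than the rises. Called falls of at least 0.5 on the log2 scale were found for 9 members (13.6%; 13.4% of all tested genes), and called rises of that size for 5 members (7.58%; 14.5% of all tested genes). The median log2 fold change was 0.16 over the 66 members and -0.006 over all tested genes, and the members ran from -1.14 (RNF123) to 0.70 (RNF19B). The median absolute log2 fold change was 0.295 for members and 0.33 for all tested genes. Summed over all 84 members, RNF genes took 0.310% ± 0.0079 of TMM-scaled counts in sh-Control libraries and 0.314% ± 0.0049 in sh-CBX7 libraries (SD, n = 3 each; exact two-sided permutation p = 0.5, where 0.1 is the smallest possible with 3 against 3). The plot of fold changes by gene shows this shape.

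**Figure D1:**
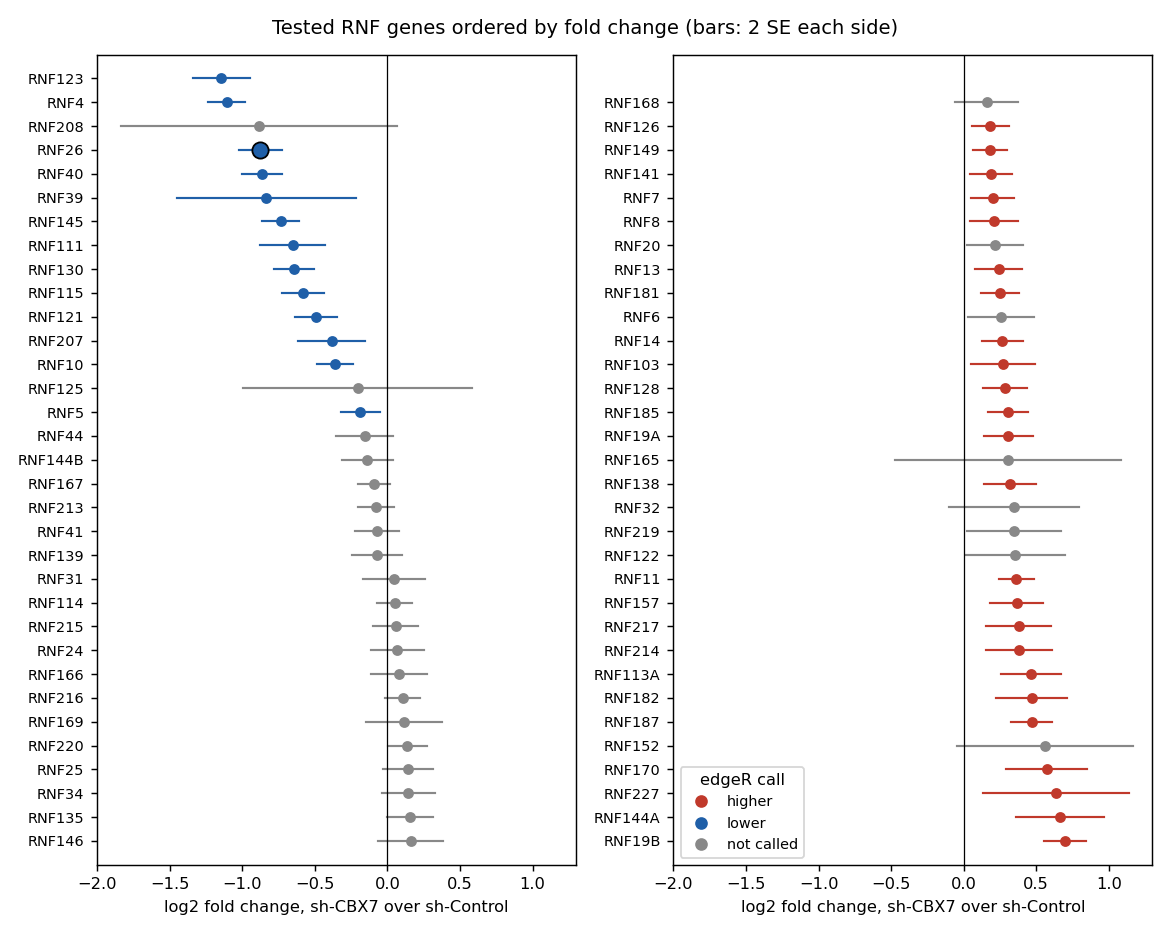
Log2 fold change (sh-CBX7 over sh-Control, horizontal axis) of 65 of the 66 tested RNF genes, ordered from the furthest fall at top left to the largest rise at bottom right; bars span 2 SE on each side and colours give the edgeR call (3 libraries per group). RNF26, the outlined point, is the 4th lowest, and the 13 called falls reach -1.14 while the called rises stop at 0.697.

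RNF26 (ENSG00000173456; chromosome 11, 119334527 to 119337313, plus strand) is a gene of 1 exon in GENCODE 29, with a transcript of 2787 bases. Its counts were 1878, 1760 and 1499 in the sh-Control libraries and 1080, 882 and 953 in the sh-CBX7 libraries. After scaling these were 113, 96.8 and 92.0 CPM in the sh-Control libraries and 57.3, 53.3 and 53.8 CPM in the sh-CBX7 libraries. Each sh-CBX7 library lay below every control, and the controls were spread more widely than the sh-CBX7 libraries (101 ± 10.9 to 54.8 ± 2.20 CPM, SD, n = 3 each). The change was 1.83-fold (log2 fold change -0.88 with an SE of 0.074, adjusted p = 1.22e-09 by edgeR). The one gene annotated across it, the antisense RNA AP003396.1, had 0 counts in all 6 libraries.

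Within the family RNF26 had the 4th lowest of 66 fold changes and, after RNF123 and RNF4, the third lowest of those called, since RNF208 (-0.89, SE 0.48) did not pass the test. Its log2 fold change differed from that of RNF40 by less than either SE (-0.88 and -0.86, SE 0.074 and 0.068), so their order is not fixed. By level per length, in CPM per kilobase of gene length, it was the fifth of 84 members in sh-Control at 36.1 ± 3.93 and the 11th in sh-CBX7 at 19.7 ± 0.791 (SD, n = 3 each). In sh-Control, RNF181 (91.2 ± 6.38), RNF5 (84.5 ± 7.61), RNF187 (67.3 ± 7.60) and RNF167 (58.6 ± 2.03) lay above it, and its next neighbour RNF11 (31.5 ± 1.37) had a range of 1 SD that overlapped its own. In sh-CBX7 its neighbours RNF114 (20.5 ± 0.383) and RNF185 (18.4 ± 0.547) had ranges of 1 SD that overlapped its own too. The gene length used equals the transcript for RNF26 (2787 bases) but is longer for other members. For RNF149 it is 4836 against 2458 bases and for RNF126 3496 against 1694. This lowers their level per length relative to RNF26, so its place depends on the length used. Places by transcript length were not computed. Counted against the family, RNF26 took 3.54%, 3.18% and 2.99% of the counts of all members in the sh-Control libraries and 1.79%, 1.71% and 1.73% in the sh-CBX7 libraries (3.24% ± 0.278 and 1.75% ± 0.0432 SD, n = 3 each; exact two-sided permutation p = 0.1, the smallest possible).

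**Figure D2:**
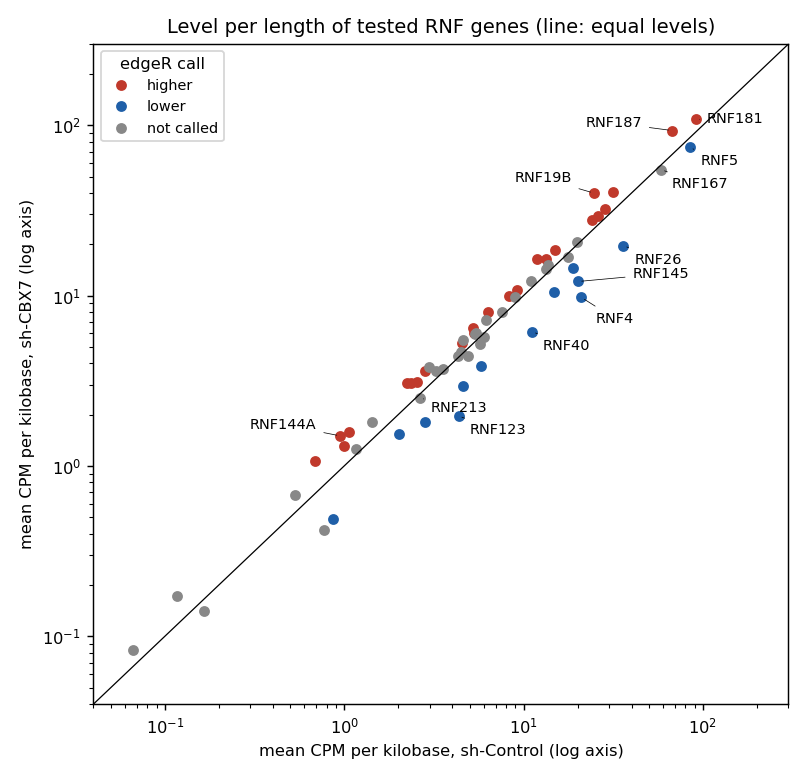
Mean level per length (CPM per kilobase, log axes, n = 3 libraries per group) of 65 of the 66 tested RNF genes in sh-Control (horizontal) and sh-CBX7 (vertical); the line marks equal levels and colours give the edgeR call. RNF26 drops from 36.1 to 19.7 and lies below the line with RNF4, RNF145 and RNF40, while RNF181, RNF5, RNF187 and RNF167, the members with the highest levels, lie closer to it.

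Membrane ligases of the ER, Golgi and lysosome formed the largest role group, with 16 members. A single value given with a gene name here and below is its log2 fold change, sh-CBX7 over sh-Control. Of the 12 tested members 4 rose, 4 fell and 4 were not called. For this and each role group and list below, the shares over all tested genes were 26.1% higher and 27.2% lower. No group or list was tested against them. Besides RNF26, RNF145, a sterol-responsive ER ligase for HMG-CoA reductase, fell, with 90.8, 94.2 and 94.0 CPM in the sh-Control libraries and 57.5, 57.0 and 53.0 CPM in the sh-CBX7 libraries (log2 fold change -0.74 with an SE of 0.064, adjusted p = 1.76e-09 by edgeR). Its groups lay far apart relative to the spread within either. RNF121, a ligase of the ER and Golgi, fell by less (log2 fold change -0.49 with adjusted p = 4.06e-06 by edgeR). RNF5 and RNF185, related ligases of ER-associated degradation, went opposite ways, RNF5 with 109.6, 92.6 and 96.3 CPM in the sh-Control libraries and 87.3, 88.7 and 86.2 CPM in the sh-CBX7 libraries (log2 fold change -0.19 with adjusted p = 0.0227 by edgeR). RNF185 had 55.2, 50.035 and 49.1 CPM in the sh-Control libraries and 64.6, 61.4 and 64.7 CPM in the sh-CBX7 libraries (log2 fold change 0.31 with adjusted p = 0.000695 by edgeR). The fall of RNF5 was small and lost its call in 5 of 14 alternative fits.

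Of the membrane ligases that rose, RNF170, which marks activated inositol trisphosphate receptors for degradation, had 5.71, 7.31 and 6.32 CPM in the sh-Control libraries and 10.4, 9.72 and 8.69 CPM in the sh-CBX7 libraries (log2 fold change 0.57 with an SE of 0.14, adjusted p = 0.00143 by edgeR). The groups did not overlap at this lower level. RNF182 had 9.98, 8.52 and 8.84 CPM in the sh-Control libraries and 13.3, 13.2 and 11.3 CPM in the sh-CBX7 libraries (0.47, SE 0.12), again without overlap. RNF103 had log2 fold change 0.27 with adjusted p = 0.0424 by edgeR and lost its call in 4 of 14 alternative fits. The sterol-regulated ER ligase RNF139 had -0.069, RNF24 0.067, RNF122 0.36 and the lysosomal ligase RNF152 0.56, and these 4 were not called.

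Partners of RNF26 at the ER and endosome split. Of 12 tested, 3 rose, 3 fell and 6 were not called (26.1% of all tested genes rose and 27.2% fell), with a median log2 fold change of -0.0102. SQSTM1, the autophagy adaptor that RNF26 ubiquitylates, rose from 626 ± 47.2 to 1145 ± 39.1 CPM (SD, n = 3 each; log2 fold change 0.87 with an SE of 0.057, adjusted p = 1.47e-11 by edgeR). UBE2J1, an ER-anchored E2 enzyme, fell from 73.1 ± 0.364 to 56.1 ± 3.47 CPM (-0.38), and TMEM43, a membrane protein of the RNF26 complex, had -0.30. The vesicle adaptor TAX1BP1 rose by 0.28 and TMEM173, the gene of STING, by 0.31, whereas IRF3, a transcription factor downstream of STING, had -0.22. The deubiquitylase USP15 (0.25), TMED1 (-0.19), ENDOD1 (0.11), TMEM33 (-0.076) and the endosomal adaptors TOLLIP (-0.058) and EPS15 (0.038) did not pass the test. Of 12 tested genes of ER-associated degradation 4 rose, 4 fell and 4 were not called. The sterol sensor INSIG1 had 0.88, HERPUD1 0.69, the E2 enzyme UBE2G2 -0.41 and the segregase VCP -0.31.

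**Figure D3:**
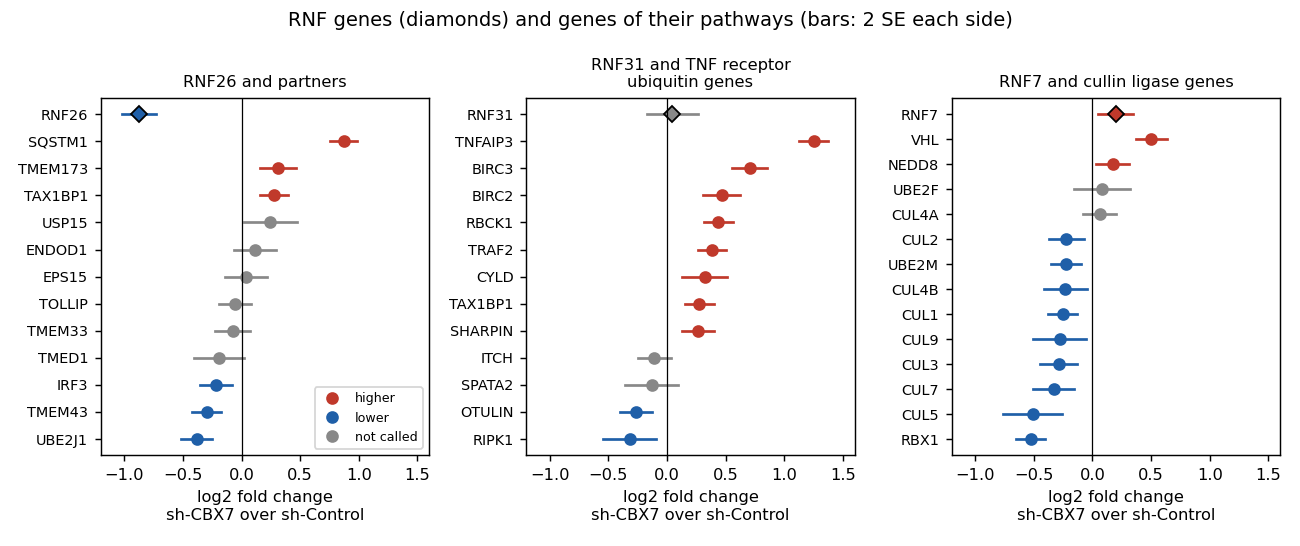
Log2 fold changes (sh-CBX7 over sh-Control, horizontal axis) of RNF26, RNF31 and RNF7 (diamonds) above the tested genes of 3 lists: RNF26 partners, ubiquitin genes of the TNF receptor pathway, and cullin ligase genes; bars span 2 SE on each side and colours give the edgeR call (3 libraries per group). SQSTM1 at 0.87 lies opposite RNF26 at -0.88, RNF31 lies near 0 while 8 of the 12 TNF receptor pathway genes rose, and 9 of 13 cullin ligase genes fell.

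Nuclear ligases of DNA repair and chromatin held 3 of the further falls. All 8 were tested; 2 rose, 3 fell and 3 were not called. RNF4, which adds ubiquitin to proteins carrying SUMO chains, had 163, 146 and 149 CPM in the sh-Control libraries and 67.6, 72.1 and 73.3 CPM in the sh-CBX7 libraries (log2 fold change -1.11 with an SE of 0.064, adjusted p = 2.07e-12 by edgeR). The highest sh-CBX7 library lay far below the lowest control. RNF111 (Arkadia), which also reads SUMO and amplifies TGF-beta signalling, had 19.1, 22.9 and 18.9 CPM in the sh-Control libraries and 12.8, 13.9 and 12.020 CPM in the sh-CBX7 libraries (log2 fold change -0.65 with an SE of 0.11, adjusted p = 3.47e-05 by edgeR). RNF40, a subunit of the ligase that adds a single ubiquitin to histone H2B, had 77.1, 72.0 and 69.7 CPM in the sh-Control libraries and 39.9, 39.6 and 40.7 CPM in the sh-CBX7 libraries (log2 fold change -0.86 with an SE of 0.068, adjusted p = 3.69e-10 by edgeR). Its groups did not overlap, and the sh-CBX7 libraries agreed closely.

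RNF20, which pairs with RNF40 in that ligase, went the other way without passing the test, with 26.1, 32.9 and 27.7 CPM in the sh-Control libraries and 29.9, 36.3 and 34.8 CPM in the sh-CBX7 libraries (log2 fold change 0.22 with an SE of 0.10, adjusted p = 0.0645 by edgeR). Its groups overlapped, and it was called higher in 4 of 14 alternative fits. RNF8, which starts ubiquitin signalling at double-strand breaks, had log2 fold change 0.21 with adjusted p = 0.0372 by edgeR and lost its call in 5 of 14 alternative fits. RNF138, which promotes resection of breaks, rose more clearly (log2 fold change 0.32 with adjusted p = 0.00421 by edgeR), while RNF168, which extends the mark that RNF8 starts, and its relative RNF169 were at 0.16 and 0.11 and not called. Other genes of the break response mostly fell, with 7 of 9 tested lower (27.2% of all tested genes were) and 2 not called, among them MDC1 (-0.55), TP53BP1 (-0.52), BRCA1 (-0.48) and the histone gene H2AFX (-0.43). Of 8 genes of H2B ubiquitylation 4 rose (26.1% of all tested genes did) and 2 fell (27.2% did). The H2B deubiquitylase USP22 had -0.69, the RNF20 and RNF40 adaptor WAC 0.33, CTR9 0.36 and the E2 enzyme UBE2B 0.28; PAF1, the second fall and named after its value was seen, had -0.20.

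Among the RING-between-RING ligases, of which all 8 were tested, 5 rose, 0 fell (also by DESeq2 and limma voom, and 0 at an unadjusted p below 0.05) and 3 were not called. Their median log2 fold change was 0.29. Of all tested genes 26.1% rose and 27.2% fell, and the group was not tested as a set. RNF19B, a membrane-bound member first described in natural killer cells, had 69.6, 57.3 and 66.4 CPM in the sh-Control libraries and 110.4, 100.2 and 102 CPM in the sh-CBX7 libraries (log2 fold change 0.70 with an SE of 0.072, adjusted p = 3.02e-08 by edgeR). Each sh-CBX7 library lay above every control, and this was the largest called rise of the 66. RNF144A, a membrane-bound ligase, had 6.25, 6.21 and 6.01 CPM in the sh-Control libraries and 11.9, 7.85 and 9.42 CPM in the sh-CBX7 libraries (log2 fold change 0.66 with an SE of 0.15, adjusted p = 0.000786 by edgeR). The sh-CBX7 libraries were spread widely, but the lowest still lay above the controls. RNF217 (0.38), RNF19A (0.31) and RNF14 (0.27), which acts on stalled ribosomes, also rose. RNF144B (-0.14), RNF216 (0.10) and RNF31 were not called. RNF216 has a transcribed pseudogene, RNF216P1, with 24.6 CPM in sh-Control and 24.8 CPM in sh-CBX7, or 24.4% of the RNF216 level in sh-Control, so reads can be split between the pair.

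RNF31 (HOIP) is the catalytic subunit of the linear ubiquitin chain assembly complex, which acts at the TNF receptor, and had 23.3, 21.3 and 19.6 CPM in the sh-Control libraries and 21.5, 19.4 and 25.2 CPM in the sh-CBX7 libraries (log2 fold change 0.045 with an SE of 0.11, adjusted p = 0.75 by edgeR). Its groups overlapped, and 2 SE on each side spanned -0.17 to 0.26. PSME2, a gene on the other strand that overlaps it, had 270.7 and 281.6 CPM, and reads of the pair cannot be told apart without the strand setting of the counting. Of the other subunits of that complex, RBCK1 rose from 362 ± 34.3 to 491 ± 9.49 CPM (0.44) and SHARPIN had log2 fold change 0.26 with adjusted p = 0.00234 by edgeR. Of the 12 listed ubiquitin genes of the TNF receptor pathway 8 rose (26.1% of all tested genes did), 2 fell and 2 were not called. The NF-kB inhibitor TNFAIP3 (A20) rose from 67.3 ± 3.38 to 160.3 ± 3.97 CPM (1.25), the ligase BIRC3 by 0.70 and the adaptor TRAF2 by 0.38, whereas the linear chain deubiquitylase OTULIN had -0.26 and the kinase RIPK1 -0.32 (SHARPIN, OTULIN and RIPK1 were named after their values were seen).

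Of 6 regulators of innate immunity and NF-kB, all tested, 1 rose and 5 were not called. RNF11, a part of the A20 complex that restrains NF-kB, rose (log2 fold change 0.36 with an SE of 0.061, adjusted p = 2.73e-05 by edgeR). RNF213, a very large ligase known as an interferon-induced gene, had 74.8, 76.0 and 76.0 CPM in the sh-Control libraries and 72.5, 69.6 and 72.8 CPM in the sh-CBX7 libraries (log2 fold change -0.077 with an SE of 0.062, adjusted p = 0.308 by edgeR). All 3 sh-CBX7 values were below the controls, but by too little for the test. RNF135 (Riplet), which activates the RNA sensor RIG-I, had 0.16, RNF114 0.051 and RNF166 0.078. RNF125, which marks RIG-I for degradation, lay near 1 CPM and had -0.21 with an SE of 0.39, so a change of this size could not be resolved at its depth.

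Ligases with a protease-associated domain and 1 membrane span act on endosomes and the cell surface. Of 5 tested, 3 rose, 1 fell and 1 was not called (26.1% of all tested genes rose and 27.2% fell). RNF130 (Goliath) fell, with 59.3, 58.0 and 60.6 CPM in the sh-Control libraries and 38.6, 37.3 and 37.8 CPM in the sh-CBX7 libraries (log2 fold change -0.65 with an SE of 0.068, adjusted p = 4.22e-08 by edgeR). Its libraries agreed closely within each group. RNF128 (GRAIL) had 0.28, RNF13 0.24 and RNF149 0.18, all called higher, although RNF13 and RNF149 each lost the call in 2 of 14 alternative fits. RNF167 had -0.093 and was not called. RNF43, which removes WNT receptors from the surface, had 29 counts over all 6 libraries and was not tested.

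Cytosolic ligases of signalling rose in 3 and fell in 1 of 8 tested. RNF115 fell, with 63.1, 59.5 and 68.7 CPM in the sh-Control libraries and 44.2, 41.7 and 41.8 CPM in the sh-CBX7 libraries (log2 fold change -0.58 with an SE of 0.072, adjusted p = 4.47e-07 by edgeR). Its paralog RNF126, which clears mislocalized membrane proteins, had 95.7, 85.9 and 91.6 CPM in the sh-Control libraries and 109, 102 and 99.2 CPM in the sh-CBX7 libraries (log2 fold change 0.18 with an SE of 0.064, adjusted p = 0.0202 by edgeR). Both separated the groups, in opposite directions, but RNF126 lost its call in 3 of 14 alternative fits. RNF157 had 0.36 and RNF7 (RBX2), the RING subunit of cullin 5 ligases, 0.20, which lost its call in 2 of 14 alternative fits. RNF41 (-0.073), RNF146 (0.16), RNF220 (0.14) and RNF165 (0.31) were not called. Of 13 cullin ligase genes, most of which work with RBX1 rather than with RNF7, 9 fell (27.2% of all tested genes did), 2 rose and 2 were not called, with RBX1, the RING subunit of most other cullins, at -0.53, CUL5, the cullin partner of RNF7, at -0.51, CUL1 at -0.26 and the substrate receptor VHL at 0.50. NEDD8, the cullin modifier and the other rise of the list, had 0.17 and was named after its value was seen, as was UBE2F, the E2 enzyme that acts with RNF7, at 0.078 and not called. Of 33 tested E1 and E2 enzymes 11 rose, 11 fell and 11 were not called (26.1% of all tested genes rose and 27.2% fell). The ISG15 enzyme UBE2L6 rose from 130.3 ± 2.71 to 393 ± 12.6 CPM (1.59), while the mitotic enzymes UBE2S and UBE2C and the Fanconi enzyme UBE2T had -0.83, -0.51 and -0.61.

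The furthest fall of the family was that of RNF123 (KPC1), a cytosolic ligase for the cell cycle inhibitor p27 and the NF-kB precursor p105, one of 14 members of other roles, all tested, of which 6 rose and 2 fell. It had 31.5, 30.6 and 35.0 CPM in the sh-Control libraries and 13.3, 15.5 and 15.1 CPM in the sh-CBX7 libraries (log2 fold change -1.14 with an SE of 0.10, adjusted p = 1.84e-09 by edgeR). Again the highest sh-CBX7 library lay far below the lowest control. RNF10, which ubiquitylates ribosomal proteins, also fell (log2 fold change -0.36 with adjusted p = 3.20e-05 by edgeR). RNF44 did not pass the test (-0.16). RNF187, a coactivator of JUN and the member with the most counts, had 249, 201 and 214 CPM in the sh-Control libraries and 329.8, 282 and 306 CPM in the sh-CBX7 libraries (log2 fold change 0.47 with an SE of 0.071, adjusted p = 7.64e-06 by edgeR). The splicing factor RNF113A had 16.6, 14.2 and 17.5 CPM in the sh-Control libraries and 21.9, 23.1 and 21.7 CPM in the sh-CBX7 libraries (log2 fold change 0.46 with an SE of 0.10, adjusted p = 0.000692 by edgeR), also without overlap. RNF214 (0.38), RNF181 (0.25) and RNF141 (0.19) were called higher, RNF141 losing its call in 6 of 14 alternative fits, and RNF6, RNF25, RNF34, RNF215 and RNF219 were not called.

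**Figure D4:**
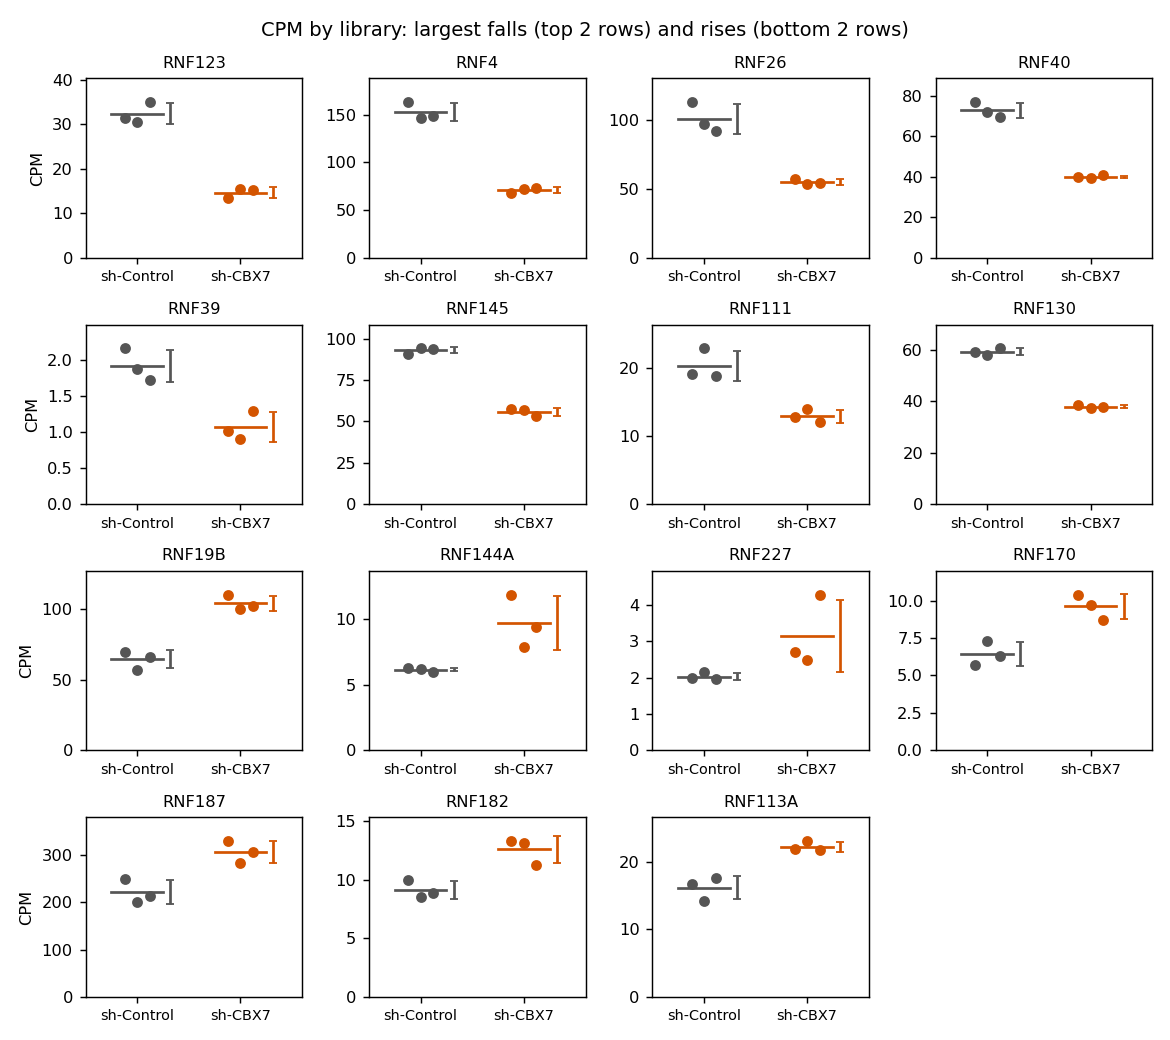
CPM in each library (points, 3 per group), with the group mean (line) and SD (bar beside it), for the 8 called members that fell furthest and 7 of the 8 that rose most among those with a mean of at least 1 CPM; each panel has its own linear axis from 0. The groups do not overlap in any of the 15 panels, and RNF39 and RNF227 lie below 5 CPM in every library.

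Members known mainly from the germline or single tissues mostly had too few counts to test. Of 15, 5 were tested; 1 rose, 2 fell and 2 were not called. RNF39, a gene of the major histocompatibility region, had 2.16, 1.87 and 1.72 CPM in the sh-Control libraries and 1.01, 0.906 and 1.298 CPM in the sh-CBX7 libraries (log2 fold change -0.83 with an SE of 0.31, adjusted p = 0.0261 by edgeR), from 15 to 36 counts per library, and lost its call in 5 of 14 alternative fits. RNF227 had 1.98, 2.14 and 1.96 CPM in the sh-Control libraries and 2.71, 2.48 and 4.29 CPM in the sh-CBX7 libraries (log2 fold change 0.63 with an SE of 0.25, adjusted p = 0.0369 by edgeR), where the third sh-CBX7 library stood above the other two, and lost its call in 6 of 14. RNF207, known from heart muscle, had log2 fold change -0.38 with adjusted p = 0.0075 by edgeR, but overlaps 2 tested genes with higher CPM on the other strand: RPL22, which also fell (104.8 to 62.2 CPM, -0.76), and ICMT, which rose (108 to 125 CPM, 0.21). Whether its fall is separate from that of RPL22 was not tested. The 18 untested members had at most 42 counts over all 6 libraries. Of these, 7 had 0 counts in every library: RNF17 and RNF133, known from the testis, RNF183, known from kidney, RNF186, known from gut and kidney, RNF180, RNF223 and RNF113B.

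Related genes were also compared as a ratio of counts within each library, which does not depend on scaling between libraries. The 7 pairs were chosen for their relation after the fold changes were known. RNF40 over RNF20 had log2 ratios of 1.56, 1.13 and 1.33 in the sh-Control libraries and 0.42, 0.13 and 0.23 in the sh-CBX7 libraries, a difference of -1.08 (SE 0.15, 95% interval -1.50 to -0.67). The controls held more than the sh-CBX7 libraries in each case, with no overlap. RNF115 over RNF126 had -0.60, -0.53 and -0.42 in the sh-Control libraries and -1.30, -1.29 and -1.25 in the sh-CBX7 libraries, a difference of -0.76 (SE 0.056, 95% interval -0.92 to -0.61). RNF144B over RNF144A differed by -0.78 (SE 0.14, 95% interval -1.16 to -0.39), RBX1 over RNF7 by -0.73 (SE 0.079, 95% interval -0.95 to -0.51) and RNF5 over RNF185 by -0.49 (SE 0.048, 95% interval -0.62 to -0.36). In these 5 pairs the groups did not overlap and the interval of the difference did not hold 0. Because the fold changes were known when the pairs were chosen, this describes the pairs and is no separate support.

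RNF19A over RNF19B differed by -0.39 (SE 0.18, 95% interval -0.90 to 0.12), without overlap but with an interval that holds 0. RNF169 over RNF168 differed by -0.058 (SE 0.17, 95% interval -0.53 to 0.41), and its groups overlapped (exact two-sided permutation p = 0.8, adjusted over the 7 pairs 0.8). For the other 6 pairs the exact two-sided permutation p was 0.1, the smallest that 3 against 3 allows, and 0.117 after adjustment over the 7 pairs, so that no pair could pass 0.05.

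**Figure D5:**
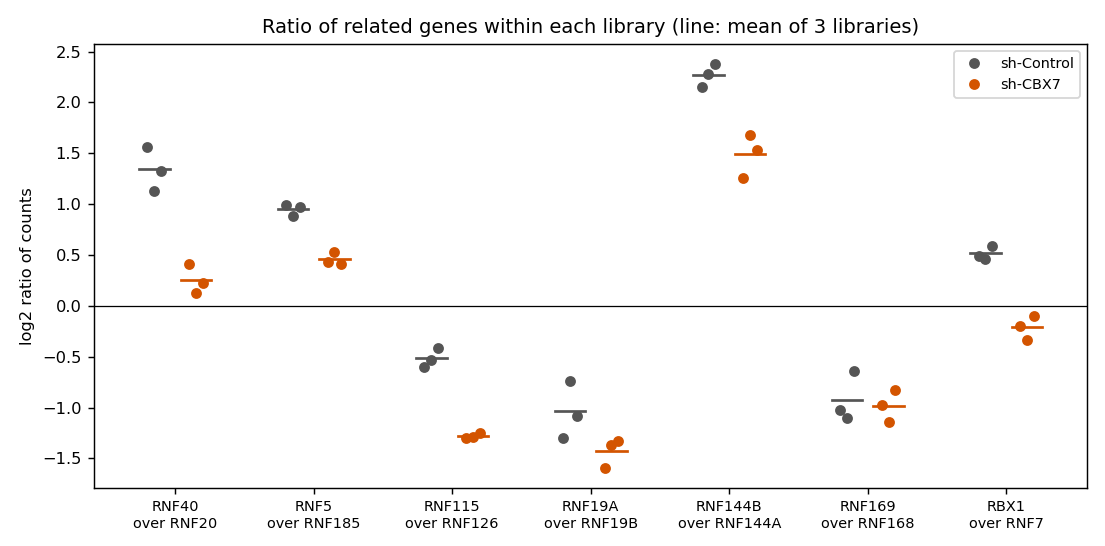
Log2 ratio of counts of 7 pairs of related genes within each library (points, 3 per group, line at the mean of the group). In 6 pairs the sh-CBX7 ratios lie below all sh-Control ratios, with a difference of means of -1.08 for RNF40 over RNF20, whereas the ratios of RNF169 over RNF168 overlap.

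A further feature of the members that fell was looked for in their 3' UTRs. The 7-base word CTCTGCT was chosen because genes that hold it in these libraries tend to be lower in sh-CBX7, so its presence is a description and no support for the falls. Over 12238 tested genes with a 3' UTR in 1 GENCODE 29 transcript each, 19.4% held it on the transcript strand; their median log2 fold change was -0.12, against 0.005 for the others, and their 3' UTRs were longer (median 2498 against 794 bases). Among the 66 tested members 16 (24.2%) held it: 6 of 13 that fell (46.2%), 5 of 25 that rose and 5 of 28 not called. Among all tested genes it was held by 26.1% of those called lower and 15.6% of those called higher. The 6 members that fell and hold it are RNF4, RNF39, RNF145, RNF111, RNF130 and RNF115. RNF26, whose 3' UTR has 889 bases, does not hold it there, nor do RNF123 and RNF40. A site of each of the 6 members that fell and hold the word is shown, 5' to 3' as in the transcript. The word is in capitals, and the sequences are those of the GENCODE 29 transcripts. Sites in the 5 that rose and the 5 not called are not shown, so the printed sites cannot be compared with theirs. The 3' UTRs of these 6 members range from 371 bases in RNF145 to 8666 in RNF130, which holds the word at a second place.
RNF4, chr4:2515803-2515825, plus strand: ttggactcCTCTGCTagtgttac
RNF39, chr6:30070749-30070771, minus strand: catagaggCTCTGCTggtcaaat
RNF145, chr5:159158431-159158453, minus strand: tatatgttCTCTGCTgatgtttt
RNF111, chr15:59095011-59095033, plus strand: agtgctggCTCTGCTatatggta
RNF130, chr5:179916163-179916185, minus strand: ggcattggCTCTGCTataggaaa
RNF115, chr1:145739224-145739246, minus strand: tgcccactCTCTGCTtaactatg

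Overlap with other genes bears on several members, since the library kit is directional per the labels but the strand setting of the counting is not given in the sources used here. Of the 66 tested members 22 overlap another tested gene, among them 7 of the 13 that fell. The tested partners of RNF123, RNF4, RNF40, RNF39 and RNF111 were not called: GMPPB, across from RNF123, had 33.9 and 28.9 CPM in sh-Control and sh-CBX7, MST1, also across from it, 2.41 and 2.68 CPM, FAM193A, on the strand of RNF4, 11.1 and 9.52 CPM, CCDC189, across from RNF40, 1.41 and 1.47 CPM, PPP1R11, across from RNF39 and far above it, 77.9 and 80.5 CPM, and SLTM, across from RNF111, 51.6 and 49.5 CPM. The other members that fell and overlap a tested gene are RNF10, whose partner COQ5 fell too (32.03 and 22.1 CPM), and RNF207, whose partner RPL22 did. RNF26, RNF145, RNF130, RNF115, RNF121 and RNF5 overlap no tested gene. The same limit holds for other members. Across from members that rose, NDUFA1 (RNF113A; 76.9 and 65.0 CPM), SPAG1 (RNF19A; 22.7 and 16.6 CPM), HOOK3 (RNF170) and BACE1 (RNF214) were called lower. GAREM1, across from RNF138, and ATF4P3, on the strand of RNF157, were not called. Some members not called also have called partners, such as PANK2 across from RNF24 (lower) and KDM2B across from RNF34 (higher).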

How the data were processed

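The deposited table holds whole-number read counts per gene without normalization, which the authors made with featureCounts 1.5.0-p3, HISAT2 2.0.5, Trimmomatic and FastQC, per the submitters' processing notes; order, strand setting and handling of multiply mapped reads are not given in the sources used here. Those notes name hg19, but 58724 of 58735 genes, and 84 of 84 members, matched GENCODE 29 on GRCh38 in both ends. Columns named siCBX7 were matched to the sh-CBX7 labels by target and number. These names differ in the reagent they imply, and the labels were followed.

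Genes passing filterByExpr were normalised with TMM and compared by edgeR 4.0.16 (R 4.3.3; glmQLFit, glmQLFTest, unpaired), with Benjamini-Hochberg adjustment over all 14573 tested genes; the SE is the log2 fold change divided by the root of F. The test was checked on simulated counts with few changed genes, as many higher as lower, and a single fixed dispersion. It was not checked at the share of called genes or the spread found in these libraries. CPM per kilobase uses the table's gene length. The members, lists and pairs were chosen with earlier results of these data known. Library values were given for the 8 largest called falls and rises at 1 CPM or more on average, RNF31, members whose paralog went the other way, and RNF213 (added after its values were seen); 1 member is not reported here, alone or in a pair. Up to 4 genes per pathway list were named by smallest p, all for RNF26 partners. The intervals of the pair differences use 4 degrees of freedom. The alternatives were other scalings and filters, DESeq2 1.42.0, limma 3.58.1 (voom), a replicate block and leaving out libraries. Libraries of a group differed beyond sampling noise (chi-square per gene 2.85 to 9.23) and were each kept.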

Additional observations from a re-analysis of the deposited data

How the results depend on the processing

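Over the 14 alternative fits, 17 of 25 members called higher and 11 of 13 called lower kept their direction and call in each. Of 28 not called, 18 stayed not called in each, but their direction could change, as for RNF31 (-0.063 to 0.13) and RNF166 (-0.041 to 0.17). The other 10 were called in some fits, most often RNF6 (higher in 5 of 14), RNF20 (higher in 4) and RNF122 (higher in 3). None of the called members reversed, and RNF39 and RNF5 were the falls that lost a call. The RNF26 log2 fold change ran from -0.94 to -0.78, and that of CBX7 stayed called in each. With upper quartile scaling 32 members were higher and 12 lower (median 0.209), with DESeq2 23 and 12, with library size alone and limma voom 25 and 13 (median 0.169 in both). Without 1 library 21 to 26 members were higher and 11 to 13 lower, with medians of 0.133 to 0.171; without sh-Control replicate 1 there were 26 and 11. With a minimum of 0.5 on the log2 scale 5 were higher and 9 lower, by construction. Without members that overlap another gene of the table, 17 remained, of which 7 were higher and 0 lower by edgeR (0 at an unadjusted p below 0.05, 0 by DESeq2 and 0 by limma voom; median 0.187), since each of the 13 falls overlaps some annotated gene. Without only those that overlap a tested gene, an alternative added after seeing the data, 44 remained, with 6 lower and a median of 0.194. With the replicate number as a block 27 were higher and 13 lower, and RNF26 had -0.87. Deviations from the group means correlated at 0.055, 0.061 and 0.035 between libraries of equal number, under the 0.1 set for taking numbers as pairs. Between libraries of different number the correlations were lower, from -0.047 to -0.0089. Deviations within a group sum to 0, so positive values at equal numbers come with negative ones at different numbers. This difference is therefore no separate result. Whether equal numbers share a batch was not tested. Without length RNF26 was the 8th member by CPM in sh-Control. Depth limits members near 1 CPM, with an SE of 0.48 for RNF208 against 0.056 for RNF167.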
